A study of Mus musculus with 7 samples.

Results

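The H2 complex is the mouse major histocompatibility complex (MHC), a cluster of genes on chromosome 17 that encode the proteins by which cells display peptides to T cells. All rows of the deposited count table whose gene name begins with H2- were taken, together with B2m and Cd74, which lie on other chromosomes, giving 46 of 48440 rows. They comprise 31 class I rows, 12 class II rows, B2m, Cd74 and H2-Ke6, which lies in the complex but encodes a dehydrogenase. Bulk RNA-seq was run on whole retina of mouse embryos at embryonic day 16 (E16) to ask what deletion of Ptbp1, a repressor of neuronal splicing, does to gene expression in the developing retina. The control carried Chx10Cre alone (WT, 1 library), the heterozygotes were Chx10-Cre;Ptbp1lox/WT (Het, 3 libraries) and the homozygotes were Chx10-Cre;Ptbp1lox/lox (KO, 3 libraries), so that all 7 libraries share the Cre transgene. Chx10-Cre is active in retinal progenitors, so that blood vessel and immune cells of the same retina are not its target, and each library is a pool of several retinas. Whether a pool mixes litters, the strain background and the H2 haplotype of the mice are not given in the sources used here, and a p-value measures only the spread between these pools.

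Class I molecules consist of a heavy chain paired with beta-2-microglobulin, the product of B2m, and display peptides from inside the cell to CD8 T cells. The classical heavy chains are found on nearly all cells but are low in the developing nervous system, while the class Ib (non-classical) genes of the Q, T and M regions are less polymorphic and have narrower roles. Class II molecules are pairs of an alpha and a beta chain, are assembled on the invariant chain encoded by Cd74, and are made chiefly by dendritic cells, B cells and activated macrophages and microglia. The reference genome is that of C57BL/6J, which carries the b haplotype, and the count of a polymorphic H2 gene depends on how well the reads of an allele match that sequence, which was not tested.

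The libraries held 120593979 to 171117305 counts. Levels are given as CPM (counts scaled to a library of 1000000) after scaling of library sizes by the trimmed mean of M values. Ptbp1, the targeted gene, had levels of 381 (WT), 210, 219 and 234 (Het1 to Het3) and 27.9, 6.04 and 46.9 CPM (KO1 to KO3) (log2 fold change KO minus Het -3.04 ± 0.635 SE, edgeR adjusted p = 0.0316), in the order of the genotypes. Retinal genes such as Pax6 (514 to 581 CPM) and Six3 (440 to 506 CPM) were abundant in all libraries. Of the retina list, 1 of 10 genes was called, Isl1, a factor of ganglion and amacrine cells, at 117 to 125 CPM in Het and 72.4 to 80.3 CPM in KO. Het1 stood apart in skeletal muscle transcripts, whose 12 genes summed to 305 CPM in that library and to 8.56 to 11.4 CPM in the other 6, with 11 of the 12 highest in Het1. Embryonic myosin Myh3 was at 88.8 CPM in Het1 and 0.888 to 1.19 CPM elsewhere, skeletal actin Acta1 at 64.2 and 0.680 to 0.890 CPM, and the myosin light chain Mylpf at 41.3 and 2.35 to 2.96 CPM.

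Of the 46 members, 12 had no count in any library, which allows up to 3 counts in each, and 19 had at most 3 counts in every library. The fit tested 24 members that passed a filter on low counts. The WT library took part in that filter and, as the smallest group, let a gene pass on enough counts in 1 library. With the Het and KO libraries alone 17 members passed it, and H2-T24 and H2-T23 did not. A gene was called when its edgeR quasi-likelihood p, adjusted by Benjamini-Hochberg over all 20019 genes tested, was below 0.05 and its fold change exceeded 1.2. Over all genes tested, 7.22% were called, 3.21% lower and 4.01% higher in KO. Among the members 4 of 24 (16.7%) were called, all lower in KO, namely the class Ib genes H2-T24, H2-T23 and H2-Q4 and the class II beta chain H2-Ab1. The other 20 tested members were not called. In the fit of the Het and KO libraries alone, 2 of 17 members were called, and 1544 of 18433 genes in all. The median log2 fold change was -0.20 over the 24 members and -0.00 over all genes tested, with 16 members lower and 8 higher. Het and KO values were fully separated in 7 of the 24 members (29.2%), all 7 lower in KO, where 36.3% of all genes tested were separated in this way.

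**Figure D1:**
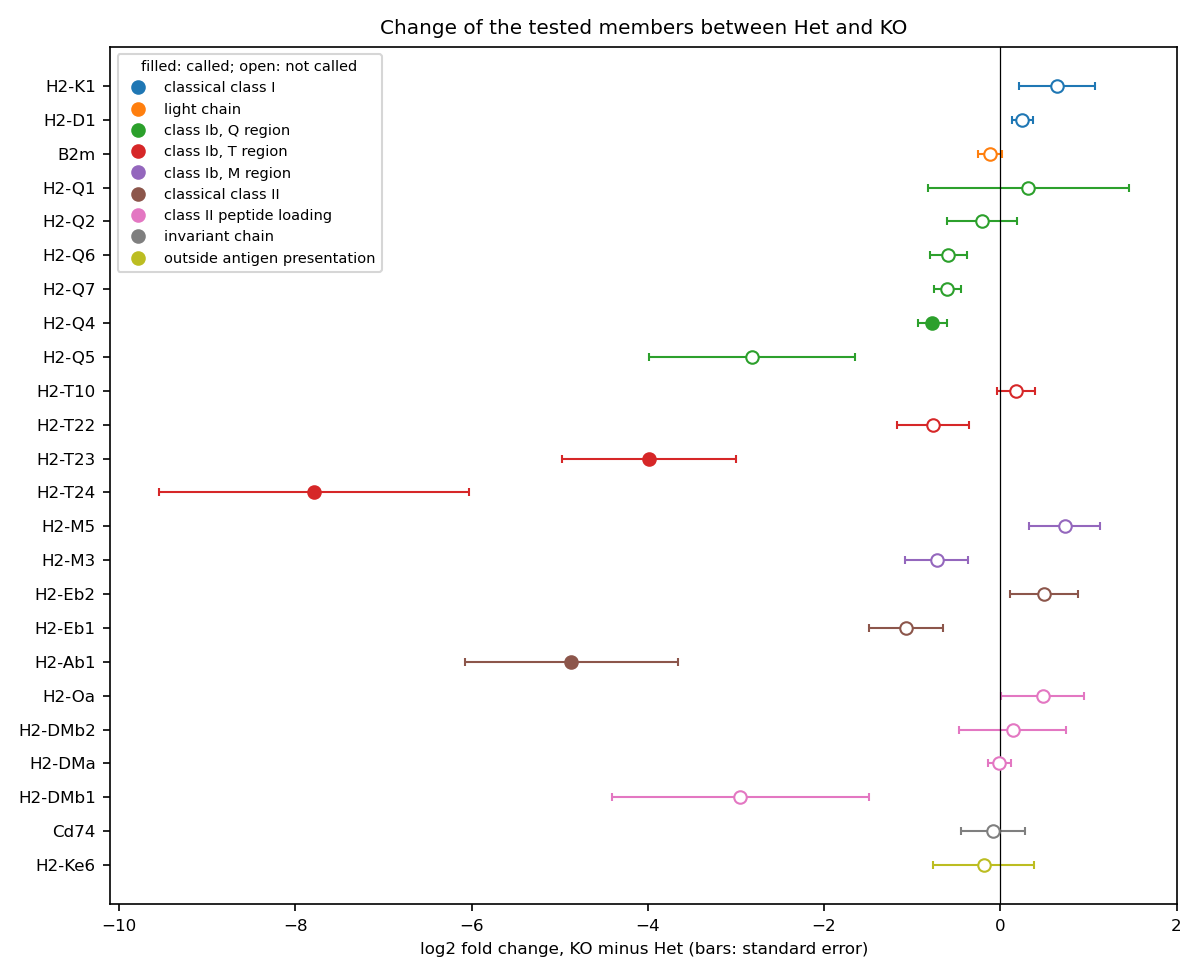
Log2 fold change between Het and KO (KO minus Het, x axis, with its standard error as bars) for the 24 members tested, grouped and coloured by role. Filled points are the 4 called members, which lie between -7.79 and -0.77, and open points the 20 members not called.

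The classical class I heavy chain H2-D1 was the most abundant H2 gene and was not called. It reached 41.7 CPM in the WT library, 34.8, 36.6 and 47.3 CPM in Het1, Het2 and Het3, and 51.1, 45.6 and 44.1 CPM in KO1, KO2 and KO3. The Het and KO ranges overlapped, because Het3 lay within the KO range (log2 fold change 0.25 ± 0.121 SE, edgeR adjusted p = 0.226). The other classical heavy chain, H2-K1, was at 2.64 CPM in WT, at 3.98, 2.30 and 1.2 CPM in the Het libraries and at 2.75, 3.99 and 4.91 CPM in the KO libraries. Het3 was the lowest of the 7 libraries for H2-K1 and KO3 the highest, and the groups overlapped (log2 fold change 0.64 ± 0.430 SE, edgeR adjusted p = 0.360). The light chain B2m was at 16.7 CPM in WT, 22, 15.7 and 18.6 CPM in Het and 15.2, 17.8 and 18.9 CPM in KO. It was not called, and the ranges overlapped (log2 fold change -0.12 ± 0.135 SE, edgeR adjusted p = 0.589).

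Per kilobase of exon, B2m had a mean level of 20.8 CPM per kb over the 7 libraries and H2-D1 16.7 CPM per kb. H2-K1 (1.06 CPM per kb), H2-Q7 (1.06 CPM per kb) and H2-DMa (1.04 CPM per kb) followed. The last 3 did not differ beyond their spread, since in the Het libraries alone H2-K1 was at 0.848 ± 0.477, H2-Q7 at 1.28 ± 0.255 and H2-DMa at 1.03 ± 0.0404 CPM per kb (SD, n = 3). Next came H2-Q4 (0.788 CPM per kb), H2-T24 (0.509), H2-Ab1 (0.312) and H2-Q6 (0.311). H2-T24 and H2-Ab1 were near 0 in 4 of the 7 libraries, so that their means stand for none of them.

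H2-D1 and H2-K1 share their upstream motifs, although H2-D1 is on the plus and H2-K1 on the minus strand. The windows below run from 250 bases before to 50 bases after the RefSeq gene start in GRCm38.p6, chr17:35262844-35263143 for H2-D1 and chr17:34000298-34000597 for H2-K1. Capitals mark matches, on either strand, to the kappaB motif GGGATTCCC and to the interferon-stimulated response element (ISRE), searched as GAANNGAAA. They are shown because these elements are known to drive class I genes and because the classical heavy chains, here and below, can be set beside class Ib genes.
H2-D1: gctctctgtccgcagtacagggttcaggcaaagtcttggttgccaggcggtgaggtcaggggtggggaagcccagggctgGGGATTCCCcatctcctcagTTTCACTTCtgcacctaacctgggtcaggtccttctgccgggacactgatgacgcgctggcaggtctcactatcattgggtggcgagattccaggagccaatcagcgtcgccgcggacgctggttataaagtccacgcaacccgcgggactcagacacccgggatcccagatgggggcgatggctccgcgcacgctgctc
H2-K1: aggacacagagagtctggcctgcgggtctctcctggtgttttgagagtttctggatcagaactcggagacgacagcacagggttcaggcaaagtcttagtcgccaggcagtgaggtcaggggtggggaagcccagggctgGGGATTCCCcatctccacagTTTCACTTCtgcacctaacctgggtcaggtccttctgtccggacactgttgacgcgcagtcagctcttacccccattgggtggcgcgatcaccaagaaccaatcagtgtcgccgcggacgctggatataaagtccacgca
The kappaB match began at position -170 in H2-D1 and at -110 in H2-K1, counted from the RefSeq gene start, and the ISRE match at -150 and at -90. Positions depend on where RefSeq places each start, so a difference between genes need not be one in the spacing of elements. The kappaB letters were found in 0.37% of 27018 promoters of the same length and in 4 of the 32 members with a promoter sequence (H2-D1, H2-K1, H2-Q6 and H2-Q7). The ISRE letters were found in 7.57% of all promoters and in 8 of the 32. Of the shorter motifs of class I and class II promoters, the Y box core ATTGG was in 37.9% of all promoters and in 28 of the 32, and the CRE core TGACG in 21% and in 13 of the 32. No kappaB or ISRE match overlapped another of these 2 motifs in the windows printed.

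Among the 8 class Ib rows of the Q region, which encode Qa molecules, 6 were tested and 1 was called. H2-Q4 was at 2.25 CPM in WT, at 2.51, 3.0 and 2.10 CPM in Het1, Het2 and Het3, and at 1.28, 1.58 and 1.59 CPM in KO1, KO2 and KO3. All 3 KO libraries were below all 4 others (log2 fold change -0.77 ± 0.169 SE, edgeR adjusted p = 0.0357). H2-Q7, a gene of the Qa-2 antigen, was at 4.59 CPM in WT, 5.92, 6.21 and 4.20 CPM in Het and 3.71, 3.67 and 3.38 CPM in KO. Its groups did not overlap either, and its adjusted p missed the threshold (log2 fold change -0.60 ± 0.157 SE, edgeR adjusted p = 0.0565). DESeq2, which called 11.6% of the 17813 genes it gave an adjusted p, called it at 0.00265, which made H2-Q7 the only member added by that tool to the 4. H2-Q6 had a log2 fold change of -0.59 ± 0.213 SE with no overlap (edgeR adjusted p = 0.124). H2-Q5 had 7 counts in WT, 16, 9 and 1 counts in Het and 0, 1 and 2 counts in KO, with Het3 inside the KO range (edgeR adjusted p = 0.164). The median log2 fold change of the 6 tested Q region genes was -0.59. H2-Q4, H2-Q6 and H2-Q7 share sequence, so that reads may be divided among them: of the 50-base words of their transcripts, 21.8% of those of H2-Q4, 32% of H2-Q6 and 26.4% of H2-Q7 also occurred in transcripts of other genes.

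The windows of H2-Q4 and H2-Q7, both on the plus strand (chr17:35379367-35379666 and chr17:35438905-35439204, GRCm38.p6), are given for comparison with those of the classical genes. The capitals mark the same motifs.
H2-Q4: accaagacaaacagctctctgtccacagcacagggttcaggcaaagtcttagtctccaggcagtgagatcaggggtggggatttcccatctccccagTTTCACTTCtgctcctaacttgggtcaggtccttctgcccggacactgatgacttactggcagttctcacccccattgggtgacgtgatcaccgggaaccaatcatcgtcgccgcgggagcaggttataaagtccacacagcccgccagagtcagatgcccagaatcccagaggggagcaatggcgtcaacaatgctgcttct
H2-Q7: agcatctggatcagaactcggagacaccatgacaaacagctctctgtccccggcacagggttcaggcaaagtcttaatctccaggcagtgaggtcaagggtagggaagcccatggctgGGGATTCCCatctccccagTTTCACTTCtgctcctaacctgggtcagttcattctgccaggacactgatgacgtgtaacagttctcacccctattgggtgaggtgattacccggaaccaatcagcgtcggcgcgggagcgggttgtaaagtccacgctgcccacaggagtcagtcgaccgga
The ISRE match began at -153 in H2-Q4 and at -113 in H2-Q7, and H2-Q7 held the kappaB letters at -132. The exact kappaB letters were not in the H2-Q4 window. At that place before the ISRE match it held gggatttccc, with an additional t, which a search for the exact letters does not count. Whether this stretch acts as a kappaB element was not tested.

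In the T region 4 of 6 class Ib rows were tested and 2 were called. H2-T24 (chr17:36005695-36020560, minus strand, coordinates of the GENCODE M21 annotation of GRCm38) had 318 counts in WT, 589, 251 and 5 counts in Het1, Het2 and Het3, and 1 count in each KO library. In CPM these were 2.14 in WT, 3.47, 2.11 and 0.0329 in Het, and 0.00755, 0.0076 and 0.00751 in KO. WT, Het1 and Het2 thus stood far above Het3 and KO, and Het3 was at 1.18% of the mean of Het1 and Het2. The pooled Het counts were 254-fold the pooled KO counts after scaling (95% exact interval 86.6 to 1234, counting error only), and the fitted log2 fold change was -7.79 ± 1.76 SE (edgeR adjusted p = 0.0389), a value that depends on the prior count at so few KO counts.

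H2-T23, which encodes Qa-1, a ligand of CD94/NKG2 receptors of natural killer cells, lies next to it (chr17:36029773-36032855, minus strand). It had 30 counts in WT, 92, 34 and 7 counts in Het1, Het2 and Het3, and 2, 1 and 4 counts in KO1, KO2 and KO3. The levels were 0.202 CPM in WT, 0.542, 0.285 and 0.0461 CPM in Het and 0.0151, 0.0076 and 0.030 CPM in KO. The pattern over libraries was that of H2-T24, with Het3 at 11.2% of the mean of Het1 and Het2 and nearest to KO (log2 fold change -3.99 ± 0.989 SE, edgeR adjusted p = 0.0497). The window at its gene start (chr17:36032652-36032951, minus strand, GRCm38.p6) is shown because it holds neither of the motifs capitalised in the other class I windows.
H2-T23: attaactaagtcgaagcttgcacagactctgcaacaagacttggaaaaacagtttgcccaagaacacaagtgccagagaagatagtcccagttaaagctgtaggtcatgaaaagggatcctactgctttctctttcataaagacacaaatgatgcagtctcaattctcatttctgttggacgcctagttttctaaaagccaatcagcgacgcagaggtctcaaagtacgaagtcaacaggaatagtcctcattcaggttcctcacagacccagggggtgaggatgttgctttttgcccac
An annotated antisense gene on the plus strand, A930015D03Rik (chr17:35994453-36038435), spans H2-T24 and H2-T23. It was singled out after its values were seen, with 29 counts in WT, 58, 26 and 0 counts in Het1, Het2 and Het3, and 3, 0 and 0 counts in KO (edgeR adjusted p = 0.132, not called). The kit marks strand, but whether the counting used it is not stated, so reads of these genes and of the antisense gene cannot be told apart.

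H2-T22 and H2-T10, ligands of a subset of gamma-delta T cells, lie in the same region and were not called. H2-T22 was at 0.699 CPM in WT, 1.09, 0.621 and 0.369 CPM in Het and 0.370, 0.524 and 0.338 CPM in KO (log2 fold change -0.76 ± 0.409 SE, edgeR adjusted p = 0.262). H2-T10 was at 0.655 to 1.05 CPM in Het and 0.838 to 1.05 CPM in KO (log2 fold change 0.18 ± 0.217 SE, edgeR adjusted p = 0.606). H2-T22 had Het3 inside the KO range, while for H2-T10 Het3 and KO2 were the highest libraries. The transcripts of both share sequence, 34.5% and 32.9% of their 50-base words occurring elsewhere, mainly in each other.

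Of the 14 M region rows, 9 had no count in any library and 2 were tested. H2-M3, which presents N-formylated peptides, was at 0.269 CPM in WT, 0.271, 0.311 and 0.303 CPM in Het and 0.0981, 0.258 and 0.180 CPM in KO. The groups did not overlap but KO1 and KO2 differed widely (log2 fold change -0.72 ± 0.358 SE, edgeR adjusted p = 0.232). H2-M5 had a log2 fold change of 0.73 ± 0.403 SE (edgeR adjusted p = 0.274).

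**Figure D2:**
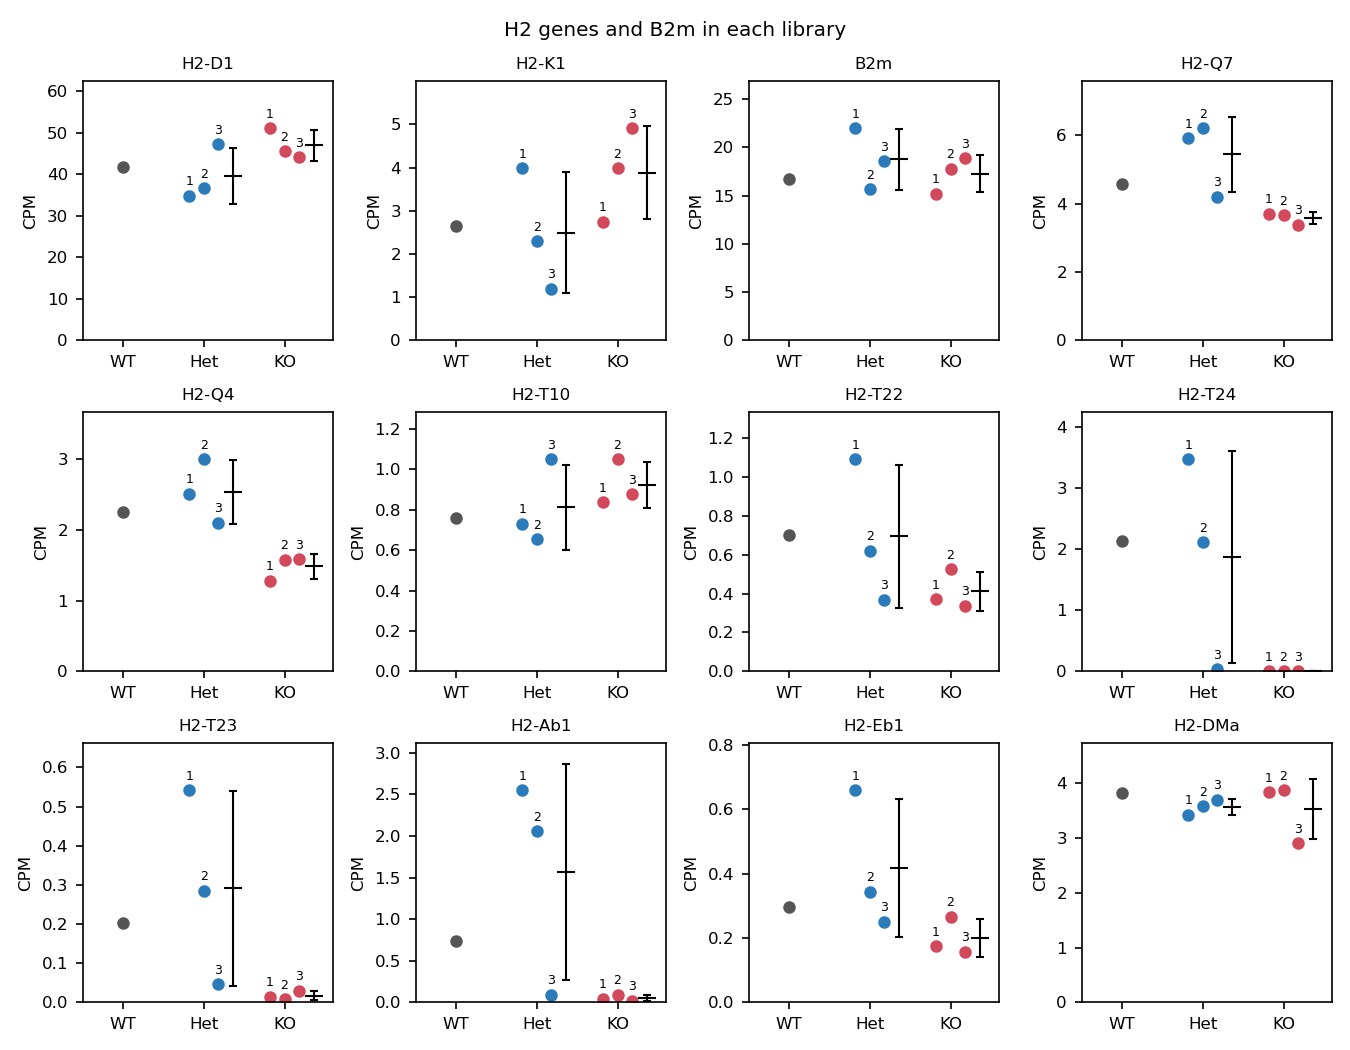
Level of 12 members (CPM, y axis from 0, a separate scale in each panel) in the WT, Het and KO libraries, with replicate numbers above the points and the mean and SD of the 3 Het and 3 KO libraries as bars. H2-T24, H2-T23 and H2-Ab1 are present in WT, Het1 and Het2 and near 0 in Het3 and the KO libraries, while H2-D1, B2m and H2-DMa are present at similar levels in all 7.

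Among the class II genes, H2-Ab1 was called and its partners were close to the limit of detection. H2-Ab1 (chr17:34257689-34269419, plus strand), the beta chain of the I-A molecule, had 110 counts in WT, 434, 246 and 14 counts in Het1, Het2 and Het3, and 6, 12 and 3 counts in KO1, KO2 and KO3. The levels were 0.740 CPM in WT, 2.55, 2.06 and 0.0923 CPM in Het and 0.0453, 0.0912 and 0.0225 CPM in KO. Het3 was again nearest to KO, at 3.99% of the mean of Het1 and Het2, and only just above KO2 (log2 fold change -4.87 ± 1.21 SE, edgeR adjusted p = 0.0498). No 50-base word of its transcripts occurred in another gene. H2-Aa, the alpha chain that pairs with it, had 1 count in WT, 3, 1 and 2 counts in Het and 0 in each KO library, and was not tested. Cd74, the invariant chain, was at 0.309 CPM in WT, 0.241, 0.101 and 0.165 CPM in Het and 0.143, 0.190 and 0.150 CPM in KO. The KO libraries lay inside the Het range (log2 fold change -0.08 ± 0.361 SE, edgeR adjusted p = 0.901). H2-Aa was too near the limit of detection for a comparison of Het with KO. In Het1 and Het2 it had 3 and 1 counts, where H2-Ab1 had 434 and 246.

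The I-E genes were measured at low levels. H2-Eb1, the I-E beta chain, was at 0.296 CPM in WT, 0.659, 0.344 and 0.250 CPM in Het and 0.174, 0.266 and 0.158 CPM in KO. KO2 lay above Het3, and the gene was not called (log2 fold change -1.07 ± 0.419 SE, edgeR adjusted p = 0.146). H2-Eb2 had 8 to 23 counts in every library and a log2 fold change of 0.50 ± 0.387 SE (edgeR adjusted p = 0.417). The I-E alpha chain is annotated as a pseudogene, H2-Ea-ps, and had 0 counts in all 7 libraries. Of the H2-DM and H2-O genes, whose products edit the peptides of class II molecules, H2-DMa was the most abundant class II member, at 3.82 CPM in WT, 3.42, 3.58 and 3.70 CPM in Het and 3.83, 3.87 and 2.90 CPM in KO. It was not called (log2 fold change -0.01 ± 0.133 SE, edgeR adjusted p = 0.952). H2-DMb1 had 6 counts in WT, 49, 7 and 2 counts in Het and 0, 0 and 6 counts in KO, so that Het1 alone stood out (edgeR adjusted p = 0.228). H2-DMb2 had 2 to 13 counts, H2-Oa 6 to 13 and H2-Ob 0 to 4 counts per library, and none of them was called. H2-Ke6, with 7 to 29 counts per library, had a log2 fold change of -0.19 ± 0.578 SE (edgeR adjusted p = 0.852), and 70.5% of its 50-base words also occurred in transcripts of Gm20427.

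The class Ib and class II sums were lower on average in KO, class II at 68.7% of the Het mean. The class I sum, mostly H2-D1, was not, and without H2-D1 it was at 73.4% of the Het mean. Class I summed to 56.5 CPM in WT, 54.5, 53.4 and 57.9 CPM in Het (55.3 ± 2.38, SD, n = 3) and 61.2, 57.6 and 56.5 CPM in KO (58.5 ± 2.44), with overlapping ranges. H2-D1 made up 63.8% to 83.5% of that sum. The 28 class Ib rows alone summed to 12.1 CPM in WT, 15.7, 14.5 and 9.42 CPM in Het (13.2 ± 3.34) and 7.37, 8.03 and 7.53 CPM in KO (7.64 ± 0.341), which was 57.9% of the Het mean. Class II summed to 5.1 CPM in WT, 7.15, 6.22 and 4.28 CPM in Het (5.88 ± 1.47) and 4.33, 4.42 and 3.39 CPM in KO (4.04 ± 0.572), with Het3 inside the KO range. Without H2-DMa, class II summed to 2.32 ± 1.60 CPM in Het and 0.514 ± 0.0304 CPM in KO, and H2-Ab1 took 35.7% and 33.2% of the whole class II sum in Het1 and Het2 but 2.16% in Het3 and 0.665% to 2.07% in KO. The sums were given no test, since they add members whose values are described above.

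**Figure D3:**
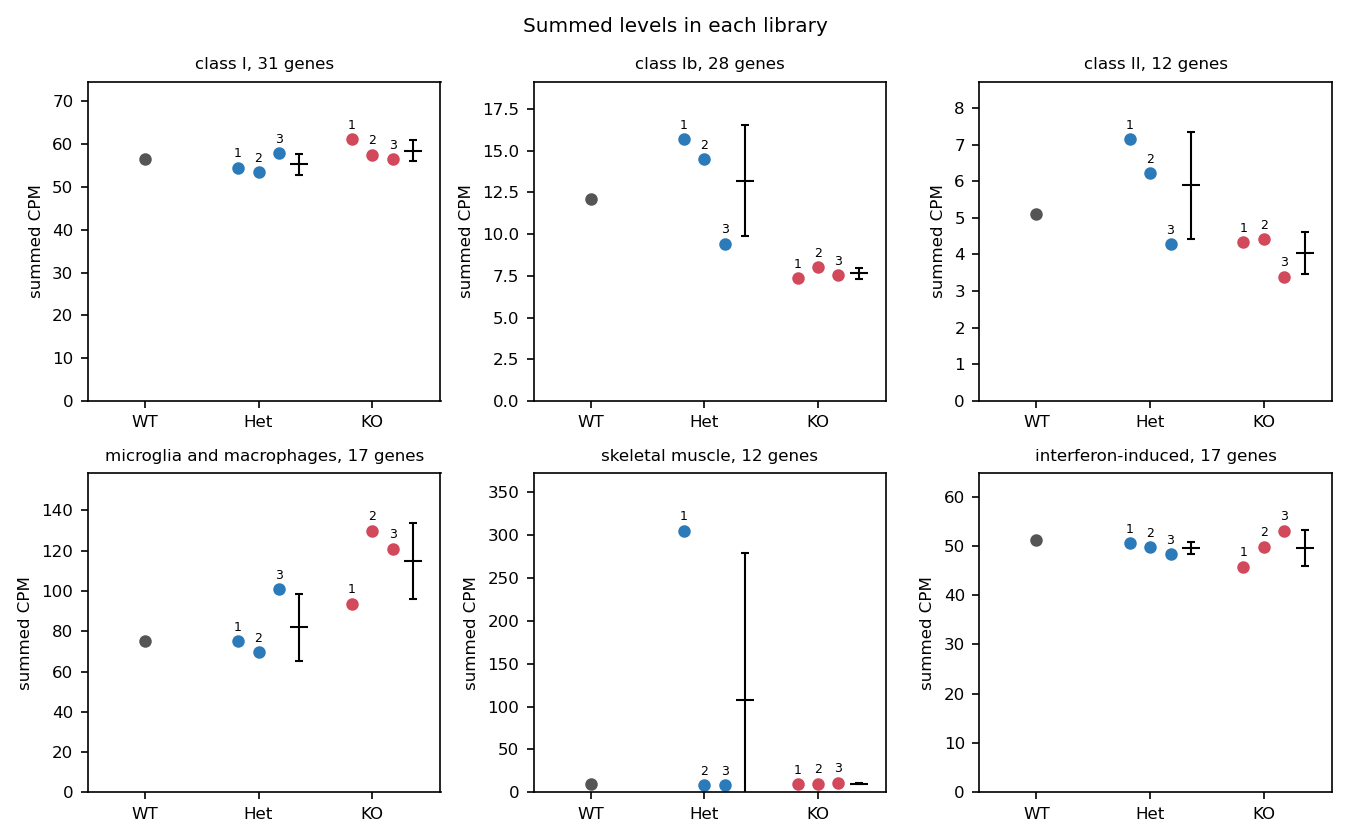
Summed CPM (y axis from 0) of class I, class Ib and class II genes in the upper row, and of the microglia, skeletal muscle and interferon-induced gene lists in the lower row, in each library, with replicate numbers and the mean and SD of Het and KO (the lower muscle bar is cut at 0). The class Ib sum is 7.37 to 8.03 CPM in KO and 9.42 to 15.7 CPM in Het, and the muscle sum is 305 CPM in Het1.

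The 3 members with the largest log2 differences shared the position of Het3, a pattern described after the values were seen. On log2(CPM + 0.5), Het3 was nearer to the KO mean than to the mean of Het1 and Het2 in 3 of the 4 called members, and in 14 of the 24 tested members (58.3%). The 14 include H2-DMa (log2 fold change -0.01) and H2-Q1 (0 to 16 counts per library), for which the nearer group means little. Over all genes Het3 was nearer to the KO mean in 30.5% of those tested, and in 18 of the 1445 called genes (1.25%). A gene with Het3 near KO spreads widely within Het and is seldom called, so that low share is partly set by the calling rule. Of these 18 genes, 5 lay on chromosome 17, of which 3 were the H2 members, and 13 lay elsewhere. The remaining genes on chromosome 17 were Gtf2h4, inside the span of the H2 genes, and Rps18 (log2 fold change -0.56). Rps18 starts at chr17:33951999, shortly before the first H2 gene at chr17:33974659. For Ptbp1 itself Het3 stood with Het1 and Het2 (234 CPM against 210 and 219 CPM). Het3 was also below WT, Het1 and Het2 in all 4 called members and in 11 of the 24 tested (45.8%), compared with 22.4% of all genes tested. Het1 was the highest library in 10 of the 24 members (41.7%), compared with 14.8% of all genes. Because Het1 also carried the muscle transcripts, values for H2-DMb1, H2-T22 and H2-Eb1 stand beside that difference, whose part in them was not tested. For the called members WT, Het1 and Het2 were all above every KO library. The part of the muscle difference in the called members was not tested either.

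Each call rested on few pools. Without Het1, Het2, KO1, KO2 or KO3, the edgeR adjusted p of H2-T24 was 0.0692, 0.107, 0.0933, 0.128 and 0.0849, that of H2-T23 was 0.1, 0.124, 0.112, 0.151 and 0.0764, and that of H2-Ab1 was 0.0895, 0.129, 0.115, 0.122 and 0.104. H2-Q4 lost its call without any 1 of the 6 libraries (edgeR adjusted p = 0.0528 to 0.109). All kept a negative log2 fold change, from -8.37 to -6.97 for H2-T24, -4.58 to -3.14 for H2-T23, -5.50 to -4.32 for H2-Ab1 and -0.89 to -0.63 for H2-Q4 over the alternatives run. Without Het3, 4 members were called, H2-T24, H2-T23, H2-Ab1 and H2-Q7. With Het1 left out, or with Het2 or any KO library left out, 0 members were called by edgeR, compared with 4 in the full fit, where 8 of the 24 had an unadjusted p below 0.05. DESeq2 called 5 members.

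Immune cell content was described by marker lists, of which only summed levels and calls are given. In bulk tissue fewer cells of a type and less RNA per cell cannot be told apart. The 17 measured microglia and macrophage genes summed to 75.4 CPM in WT, 75.2, 69.6 and 101 CPM in Het and 93.7, 130 and 121 CPM in KO. The KO libraries were higher apart from KO1, which lay below Het3, and 14 of the 17 genes had a positive log2 fold change, with 2 called, Ptprc (0.70 ± 0.158 SE, edgeR adjusted p = 0.0386) and Cx3cr1 (0.71 ± 0.167 SE, edgeR adjusted p = 0.0429). Csf1r, the receptor that microglia need to survive, was at 14.5 to 22.7 CPM in Het and 22.9 to 28.8 CPM in KO and was not called. Laptm5, a lysosomal protein of myeloid cells, was at 8.35 to 11.5 CPM in Het and 11.2 to 15.4 CPM in KO and was not called either. By edgeR 11.8% of the list was called, compared with 7.22% of all genes, and DESeq2 called 11 of the 17, compared with 11.6% of all genes. The list averaged 81.9 CPM in Het and 115 CPM in KO. The 3 genes with a negative log2 fold change were Mrc1 (-0.64), Tmem119 (-0.43) and Fcer1g (-0.09), none of them called. Mrc1 was at 2.1, 2.52 and 6.17 CPM in Het and 0.355, 0.403 and 6.19 CPM in KO. The part of these cells in the H2 values was not tested. All 17 genes were above 0 in every library.

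Of the 9 dendritic and B cell genes, 5 were tested and 0 called, with 1 at an unadjusted p below 0.05 and 0 called by DESeq2. Their sum of 29.4 to 31.8 CPM was mostly Zbtb46 (28.6 to 30.4 CPM), and Itgax and Xcr1 were below 0.6 CPM throughout. Of the 7 T and NK cell genes, 3 were tested and 0 called, with 0 at an unadjusted p below 0.05 and 0 called by DESeq2. They summed to 1.35 CPM in WT, 2.06 to 2.30 CPM in Het and 2.11 to 2.86 CPM in KO, chiefly Cd4 and Cd8a. Klrb1c was at most at 0.0760 CPM, and Nkg7 and Ncr1 were at 0 in all libraries. The T cell receptor subunits were nearly absent, Cd3e with 1 count in Het2 and 0 elsewhere, and Cd3g with at most 3 counts in a library. Whether the Cd4 and Cd8a counts come from T cells was not tested. Of the 9 endothelial genes 7 had a negative log2 fold change, from -2.17 to -1.40, and none of the 7 was called. The median over the list was -1.73. Cldn5 and Kdr had a positive difference, and Kdr, a receptor of vascular endothelial growth factor, was called, at 363 to 376 CPM in Het and 468 to 562 CPM in KO (log2 fold change 0.44 ± 0.0748 SE, edgeR adjusted p = 0.0186). Kdr was the only gene of the list called by edgeR, and DESeq2 called 2. Its mean over the 7 libraries was 423 CPM, where the next most abundant gene of the list, Cldn5, had 12.7 CPM. Whether the Kdr counts come from endothelium was not tested. Cdh5, the vascular cadherin, was at 6.80, 3.21 and 9.77 CPM in Het and 0.988, 0.555 and 4.41 CPM in KO, and Cldn5 at 11 to 13.2 CPM in Het and 12.1 to 15.2 CPM in KO, neither called. The part of these cell types in the H2 values was not tested.

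Interferon induces both class I and class II genes. Of the 17 interferon-induced genes 16 were tested and 1 was called, Irf1, at 3.03 to 3.16 CPM in Het and 3.94 to 4.05 CPM in KO (log2 fold change 0.37 ± 0.0813 SE, edgeR adjusted p = 0.0358). The abundant Stat2 (28.6 to 29.6 CPM in Het, 26.9 to 29.8 CPM in KO) was not called, nor was Irf9. The list summed to 51.1 CPM in WT, 48.3 to 50.6 CPM in Het and 45.8 to 53.1 CPM in KO, and its median log2 fold change was -0.04.

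A list of 29 antigen processing and presentation genes without H2 names, of which Tap1, Tap2, Psmb8 and Psmb9 lie in the H2 interval, held 16 with a positive and 13 with a negative difference. All 29 were tested and 4 were called, 2 lower and 2 higher in KO, and the median log2 fold change was 0.04. Mr1, a class I-like molecule that presents vitamin B metabolites to MAIT cells, was at 1.28 CPM in WT, 1.75, 1.42 and 1.73 CPM in Het and 0.370, 0.426 and 0.788 CPM in KO (log2 fold change -1.63 ± 0.302 SE, edgeR adjusted p = 0.0228). All Het libraries and WT were above all KO libraries, and Het3 stood with the other Het libraries. Cd1d1, which presents lipids to NKT cells, was at 10.9, 11.6 and 10.8 CPM in Het and 16.8, 14.8 and 16 CPM in KO (log2 fold change 0.51 ± 0.0671 SE, edgeR adjusted p = 0.00924). Rfxank, a subunit of the RFX factor that binds class I and class II promoters, had a log2 fold change of 0.35 (edgeR adjusted p = 0.0225), and the lysosomal protease Ctsl one of -0.28 (edgeR adjusted p = 0.0472). These 4 genes share with the members their Het and KO libraries, and none of them had Het3 among the KO values. The calling rule itself makes such a position rare, since it widens the spread within Het.

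The chaperones Canx (548 to 572 CPM in Het, 556 to 570 CPM in KO), Calr (531 to 540 and 540 to 597 CPM) and Pdia3 (414 to 429 and 374 to 415 CPM) were the most abundant of the list and were not called. The transporter subunit Tap1 was at 1.76 to 2.0 CPM in Het and 1.93 to 2.77 CPM in KO (log2 fold change 0.30 ± 0.160 SE, edgeR adjusted p = 0.255), and the immunoproteasome subunits Psmb8 and Psmb9 stayed below 0.4 CPM in every library. The class II transactivator Ciita was at 0.165, 0.0839 and 0.119 CPM in Het and 0.174, 0.243 and 0.210 CPM in KO (log2 fold change 0.75 ± 0.328 SE, edgeR adjusted p = 0.181), and Nlrc5, the class I transactivator, had a log2 fold change of 0.40 ± 0.388 SE. Both had a positive difference that was not called, at 0.243 CPM or less in every library. Their part in the H2 values was not tested.

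The H2 genes on chromosome 17 span chr17:33974659-37483552, or 3.51 Mb, in which 138 genes were tested, 22 of them members and 116 others. Of the 116 others 5 were called (4.31%), with a median log2 fold change of -0.07 and a range of -6.40 to 1.33. Lower in KO were the Polycomb subunit Ring1 (log2 fold change -0.27), the valyl-tRNA synthetase Vars (-0.41) and the transcription factor subunit Gtf2h4 (-0.39), and higher were Ier3 (0.67) and Trim39 (0.28). Of these, Gtf2h4 was at 15, 14.8 and 12 CPM in Het and at most 10.8 CPM in KO, so that Het3 lay nearer to KO. Over the 767 tested genes of chromosome 17 outside the interval 117 were called (15.3%), 83 lower and 34 higher, and over other chromosomes 6.89%. Whether pools differed in H2 haplotype was not tested, and with the haplotype not given it and the genotype cannot be told apart.

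**Figure D4:**
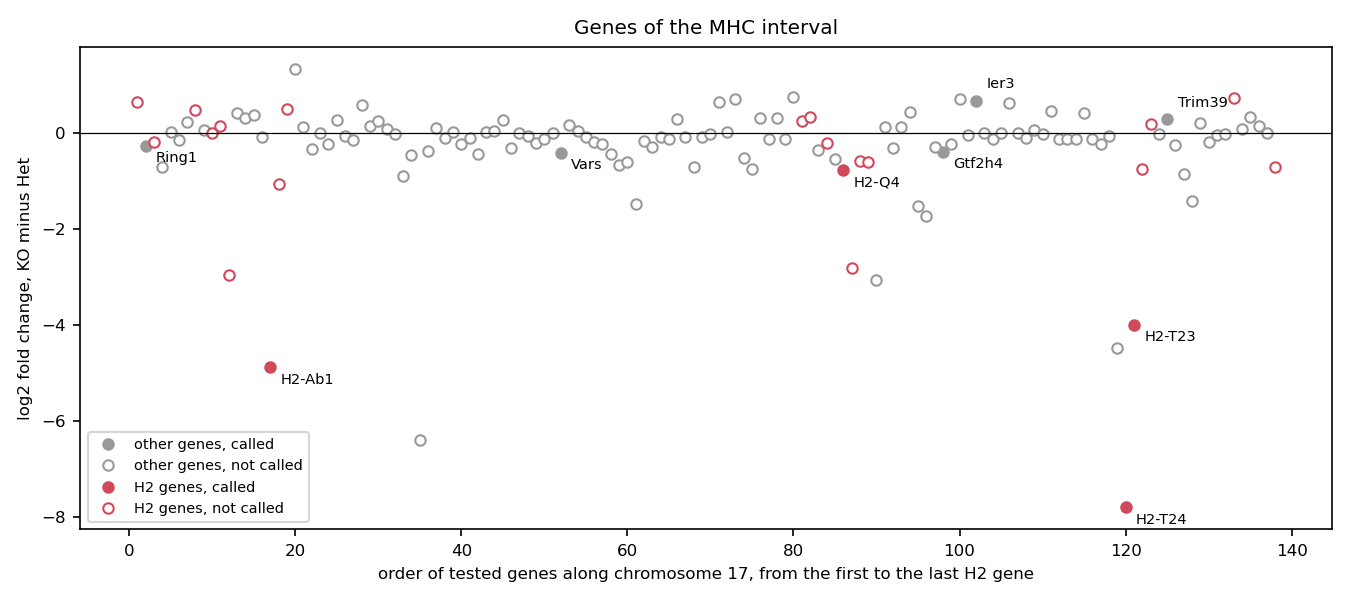
Log2 fold change (KO minus Het, y axis) of the 138 tested genes between the first and the last H2 gene on chromosome 17, in their order along it (x axis, number in the order), with H2 genes in red, other genes in grey and called genes filled. The 4 called H2 genes are H2-Ab1 in the class II part, H2-Q4 in the Q region and H2-T24 and H2-T23 next to each other. Between these places lie other tested genes, among them H2-Eb1 (-1.07) and H2-Q5 (-2.82), which were not called.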

How the data were processed

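Poly(A) RNA of 7 pools of E16 retinas was sequenced after a stranded library preparation. The labels name TRIzol for extraction and the study's methods a column kit. The authors aligned reads with STAR to GRCm38 (mm10) with GENCODE M10 and used featureCounts to assign them to genes. The deposited values are raw whole-number counts. Strand and multi-mapping settings of the counting are not given in the sources used here, so counts of overlapping genes and close paralogs are uncertain. Columns of values that belong to no sample numbered 0.

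Counts were fitted in R 4.3.3 with edgeR 4.0.16 (TMM, filterByExpr, glmQLFit and glmQLFTest over all 7 libraries, 1 mean per genotype, contrast KO minus Het), which kept 20019 of 48440 genes. The common dispersion was 0.046. A gene was called at an adjusted p (Benjamini-Hochberg over all genes tested) below 0.05 with a log2 difference over 0.263 in either direction. WT has 1 library and entered no contrast, but it took part in the filter, the normalization and the dispersion. With 3 libraries against 3, an exact permutation test cannot go below p = 0.1, so none was used. DESeq2 1.42.0, 2 other normalizations, 2 other filters, Het and KO alone, a replicate block and leaving out each library were the alternatives.

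Depth was 120593979 to 171117305 counts per library, and intervals and the limit of 3 counts cover counting error only. Same-numbered Het and KO libraries deviated together with r = -0.197, 0.159 and -0.0739, so the numbers were not taken as pairs. Members and gene lists were chosen with earlier results of these data known. The genes named were the called members, the classical and peptide-loading genes, the 10 most abundant members, called and most abundant list genes, and called interval genes. H2-T22, H2-M3, H2-M5, H2-Q5, Tap1, Tap2, Psmb8, Psmb9, Ciita, Nlrc5, Nkg7, Ncr1, Cd3e, Cd3g, Mrc1, Tmem119, Fcer1g, Rps18 and A930015D03Rik fall outside that rule and were named after their values were seen. Itgam, which has 2 rows, was left out of the microglia list. Coordinates and exon lengths are from GENCODE M21 of the same build, and promoter sequences from RefSeq (GRCm38.p6), found for 32 of the 46 members. The 50-base words are those of the GENCODE M21 transcripts. Genes of the lists that this rule does not take were counted and summed without being named, and a few others are not reported here.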

Additional observations from a re-analysis of the deposited data

How the results depend on the processing

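The count of called members, 4, was 5 with DESeq2, 3 with relative log expression scaling, 4 with upper-quartile scaling and 4 with no filter. It was 2 with at least 10 counts in every library (H2-Q4 and H2-Q7, since the other calls are of genes below that minimum), 2 with the Het and KO libraries alone (H2-Ab1 and H2-Q4) and 0 to 4 when 1 library was left out. For the other counts, leaving out 1 library gave 386 to 1673 called genes, 1 to 5 in the antigen processing list and 0 to 8 of the interval genes outside the H2 names. The adjusted p alone gave 2221 genes and 9 interval genes, and DESeq2 called 12 interval genes. The cause of these differences was not tested.

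The replicate block was fitted to the Het and KO libraries alone, where 17 members were tested and H2-T24 and H2-T23 were not, although the pairing was not borne out. It called 1 member (H2-Ab1), against 2 in the same libraries without the block, 3 interval genes against 6, 3 genes of antigen processing against 4, and 1268 genes in all against 1544.

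Without its most abundant gene, the class I sum was 15.7 CPM in Het and 11.5 CPM in KO, and the class II sum 2.32 and 0.514 CPM. With 1 library left out, the sign of the log2 fold change turned only in 6 members that were not called, over ranges of -0.33 to 0.26 for Cd74, -0.23 to 0.01 for B2m, -0.67 to 0.32 for H2-Ke6, -0.30 to 1.91 for H2-Q1, -0.22 to 0.33 for H2-DMb2 and -0.09 to 0.11 for H2-DMa. Of 277 values of single members under an alternative, 242 kept direction and call, 23 lost the call, 3 gained it and 9 reversed. Members under about 10 counts per library are limited by depth.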
